A study of Homo sapiens with 8 samples.

Results

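Genes that lie around MDM2 on the long arm of human chromosome 12, at band 12q15, are described here in a pair of neuroblastoma cell lines, NGP and CHLA-20, with and without an inhibitor of the arginine methyltransferase PRMT5. The set holds 10 of the 58721 genes counted: GRIP1, RAP1B, NUP107, SLC35E3, CPM, CPSF6, YEATS4, FRS2, CCT2 and BEST3, in their order along the chromosome, found by their gene identifiers in GENCODE release 29. MDM2 itself is not one of them and serves as the landmark. The 10 genes were selected on their position and on their measured levels in the 2 lines, so the difference between the lines is given below as a description and without a test, and the response to the inhibitor is tested.

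Messenger RNA was counted in 8 libraries, 2 in each of 4 groups: NGP with JSK591, NGP with DMSO, CHLA-20 with JSK591 and CHLA-20 with DMSO, each after 6 days. JSK591 is the name of the PRMT5 inhibitor on the samples and GSK591 the name in the treatment description, at a dose given only as the IC50 and not as a concentration, and DMSO is the vehicle. NGP grew in RPMI1640 and CHLA-20 in IMEM with insulin, transferrin and selenite, both with fetal bovine serum, so a difference between the lines is also a difference between media. The labels do not say whether the 2 libraries of a group came from separate cultures. The p-values below therefore set differences between groups against the scatter of these particular samples, part of which may be technical.

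MDM2 encodes the ubiquitin ligase that marks the tumour suppressor p53 for degradation, and its own transcription is raised by p53. In several tumour types a stretch of this chromosome arm is present in many extra copies, and neighbouring genes are then often copied along with MDM2. Such an amplification of MDM2 has been described for NGP. DNA copy number was not measured here, and its part in the levels below was not tested. PRMT5 dimethylates arginines symmetrically, on histones and on proteins of the splicing machinery.

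The products of the 10 genes work in unrelated processes. CCT2 is a subunit of the ring-shaped chaperonin TRiC, which folds actin and tubulin. NUP107 belongs to the Y complex, the scaffold of the nuclear pore. CPSF6 is the larger partner of NUDT21 in cleavage factor Im, which directs the choice of polyadenylation sites. YEATS4 reads acetylated histone tails in the TIP60 and SRCAP chromatin complexes. FRS2 is the docking protein that links activated FGF receptors to GRB2 and RAS, and RAP1B is a small GTPase of integrin adhesion. SLC35E3 is a predicted nucleotide sugar transporter, CPM is a membrane-bound carboxypeptidase, BEST3 is a member of the bestrophin chloride channels and GRIP1 is a scaffold for AMPA receptors. Levels are given as normalised counts, which are counts per 1000000 of a library's scaled total, and CPM always means the gene.

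The stretch of 250 bases before the start annotated in RefSeq, build GRCh38.p14, was read for 8 of the 10 genes. Gene coordinates given below are from GENCODE, and each of the 8 windows runs past the GENCODE start into the gene. The window of NUP107 lies almost wholly inside the gene, which starts at 68686734 in GENCODE. That of CPM, at 68933200 to 68933449, lies inside a minus-strand gene that spans 68842197 to 68971570. The windows are thus not upstream of the GENCODE starts. The windows of the 4 genes called higher with JSK591 in CHLA-20 are shown, where 16.9% of all genes tested were called higher and 22.4% lower. In NGP these 4 did not move alike: CPSF6 and SLC35E3 rose, CCT2 fell and NUP107 was not called. All 4 are on the plus strand: NUP107 at chr12:68686728-68686977, SLC35E3 at chr12:68745926-68746175, CPSF6 at chr12:69239319-69239568 and CCT2 at chr12:69585209-69585458. Capitals mark short motifs searched on both strands, namely the E-box CACGTG, the GC box GGGCGG, the CCAAT box CCAAT, the TATA box TATAAA and the ETS core CCGGAA. None of these motifs overlaps another in the windows shown.
NUP107: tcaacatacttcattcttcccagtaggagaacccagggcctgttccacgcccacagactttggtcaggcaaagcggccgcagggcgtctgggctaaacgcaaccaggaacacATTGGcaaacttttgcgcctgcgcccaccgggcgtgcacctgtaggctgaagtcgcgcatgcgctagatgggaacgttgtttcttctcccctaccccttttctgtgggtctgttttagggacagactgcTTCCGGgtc
SLC35E3: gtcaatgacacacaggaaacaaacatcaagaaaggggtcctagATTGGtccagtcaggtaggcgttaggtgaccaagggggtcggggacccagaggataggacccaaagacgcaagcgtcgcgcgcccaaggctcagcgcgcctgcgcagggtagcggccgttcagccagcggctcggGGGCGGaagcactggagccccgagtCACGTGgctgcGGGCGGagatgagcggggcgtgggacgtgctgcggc
CPSF6: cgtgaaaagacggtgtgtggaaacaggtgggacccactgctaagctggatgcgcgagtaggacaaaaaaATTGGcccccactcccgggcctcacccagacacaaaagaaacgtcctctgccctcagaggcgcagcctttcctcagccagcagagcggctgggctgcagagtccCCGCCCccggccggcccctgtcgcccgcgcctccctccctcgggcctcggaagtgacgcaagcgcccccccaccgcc
CCT2: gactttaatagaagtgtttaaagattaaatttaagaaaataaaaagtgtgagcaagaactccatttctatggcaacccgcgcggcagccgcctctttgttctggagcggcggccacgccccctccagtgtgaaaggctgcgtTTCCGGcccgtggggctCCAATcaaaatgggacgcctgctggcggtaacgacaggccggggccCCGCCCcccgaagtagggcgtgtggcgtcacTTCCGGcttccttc
Each of these 4 windows held 1 CCAAT box, and the windows of RAP1B, CPM, YEATS4 and FRS2 held 0, against 32.0% of all 35116 promoter windows of the same length. This split was noticed after the responses were known, and it is a description. CPM held 13 counts in each CHLA-20 group, too few to detect a change of moderate size. SLC35E3 had the only E-box of the 8 windows, a motif found in 6.34% of all windows. GC boxes, found in 42.6% of all windows, were absent from the windows of NUP107 and YEATS4 and reached 6 in that of RAP1B. An ETS core, found in 14.5% of all windows, stood in the windows of NUP107, FRS2 and CCT2. A TATA box, found in 10.7% of all windows, stood in none of the 8. These are matches of letters and not sites shown to be used.

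Gene counts summed to between 33188542 and 34914902 in each library, and 19395 genes were tested. All 10 genes passed the filter on low counts, which CPM did through the NGP libraries and BEST3 through the NGP DMSO libraries, where they were higher. Of 12 markers of neuroblastoma and its sympathoadrenal origin, 9 stood above 1 normalised count on average in both NGP groups and 11 in both CHLA-20 groups. Their summed level was 2696 to 2897 normalised counts in NGP libraries and 5138 to 6461 in CHLA-20 libraries. TH and DBH, enzymes of catecholamine synthesis, averaged under 1 normalised count in NGP, and CHGA had 0 or nearly 0 counts in both lines. None of 5 blood markers reached 1 normalised count. Of 5 fibroblast markers, 4 did so in NGP, with sums of 584 to 696 normalised counts led by COL1A1, and 5 in CHLA-20, with sums of 407 to 484. Of the other lists, melanocyte markers summed to 23.9 to 28.5 normalised counts in NGP and 2.25 to 3.02 in CHLA-20, almost all from PMEL, Schwann cell markers to at most 4.64 and epithelial markers to at most 4.91. These sums differed between the lines, and their part in the results below was not tested.

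Without the inhibitor, all 10 genes were at a higher level in NGP than in CHLA-20. Both NGP DMSO libraries lay above both CHLA-20 DMSO libraries in each of them. The share of all genes that separate in this way was not computed, so nothing is read from the separation. Of all genes tested, 36.6% were called higher in NGP DMSO (edgeR, adjusted p under 0.05). CPSF6 differed least, 3.02-fold, and CPM most, 169-fold. The median log2 difference of the 10 was 3.31, against -0.02 for all genes tested, and 9 of the 10 reached a log2 difference of 2, against 8.39% of all genes. A log2 difference of 3 was reached by 6 of the 10, against 5.28% of all genes. Because this difference chose the genes, nothing is read from the counts. In bulk RNA, fewer cells with a transcript and less transcript per cell cannot be told apart.

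Among the genes of protein complexes, CCT2 (ENSG00000166226.12, plus strand, chromosome 12, 69585334 to 69601570, GRCh38) had 3682 and 3599 normalised counts in the NGP DMSO libraries, against 302 and 312 in the CHLA-20 DMSO libraries. It was the most abundant of the 10 genes and stood 11.9-fold higher in NGP. NUP107 (ENSG00000111581.9, 68686734 to 68745809, plus strand) had 963 and 914 normalised counts in NGP DMSO, against 93.9 in both CHLA-20 DMSO libraries, a 10.0-fold difference. CPSF6 (ENSG00000111605.17, 69239537 to 69274358, plus strand) had 363 and 349 normalised counts in NGP DMSO, against 118 in both CHLA-20 DMSO libraries. YEATS4 (ENSG00000127337.6, 69359703 to 69390796, plus strand) had 501 and 495 normalised counts in NGP DMSO, against 52.0 and 49.3 in CHLA-20 DMSO. YEATS4 and NUP107 thus differed by nearly the same fold, 9.84 for YEATS4, although CPSF6 lies between them on the chromosome with a smaller difference.

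Of the signalling genes, FRS2 (ENSG00000166225.8, 69470349 to 69579789, plus strand) had 372 and 370 normalised counts in NGP DMSO, against 37.2 and 34.3 in CHLA-20 DMSO, a 10.4-fold difference. RAP1B (ENSG00000127314.17, 68610839 to 68671901, plus strand) had 254 and 243 normalised counts in NGP DMSO, against 36.4 and 38.0 in CHLA-20 DMSO, 6.68-fold higher. The replicates of each group lay far closer together than the 2 lines in both genes. RAP1B has 3 annotated pseudogenes named after it, none with more than 6 counts over the 8 libraries.

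The membrane and synapse genes were the least abundant. SLC35E3 (ENSG00000175782.9, 68746106 to 68793964, plus strand) had 127 and 122 normalised counts in NGP DMSO, against 18.7 and 19.5 in CHLA-20 DMSO, 6.53-fold higher. CPM (ENSG00000135678.11, 68842197 to 68971570, minus strand) had 33.1 and 33.2 normalised counts in NGP DMSO, against 0.118 and 0.266 in CHLA-20 DMSO. CPM was thus a low but clearly counted transcript in NGP and close to absent in CHLA-20, where the 2 DMSO libraries held 13 counts in all. Its log2 difference of 7.40 became 6.93 without the first and 8.10 without the second CHLA-20 DMSO library. GRIP1 (ENSG00000155974.12, 66347431 to 67069162, minus strand) had 6.55 and 7.46 normalised counts in NGP DMSO, against 0.562 and 0.385 in CHLA-20 DMSO, 14.7-fold higher. BEST3 (ENSG00000127325.18, 69643360 to 69699476, minus strand) held 18 and 30 counts in NGP DMSO, against 6 and 4 in CHLA-20 DMSO. At these few counts the fitted 4.75-fold difference of BEST3 had the widest error of the set, with a log2 value of 2.25 ± 0.52 (SE). The log2 differences of the other 9 genes had SEs of 0.04 to 0.21.

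MDM2 itself (ENSG00000135679.23, 68808176 to 68850686, plus strand) had 482 and 454 normalised counts in NGP DMSO, against 40.5 and 40.6 in CHLA-20 DMSO, 11.5-fold higher. Its 3' part overlaps the gene CPM on the opposite strand over 8490 bases. The exons of CPM share 2.93% of their bases with other genes and those of MDM2 9.21%, and whether counting used the strand is not stated. The share was 4.81% for NUP107, 3.27% for GRIP1, 0.767% for CPSF6 and 0 for the other 6 genes.

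**Figure D1:**
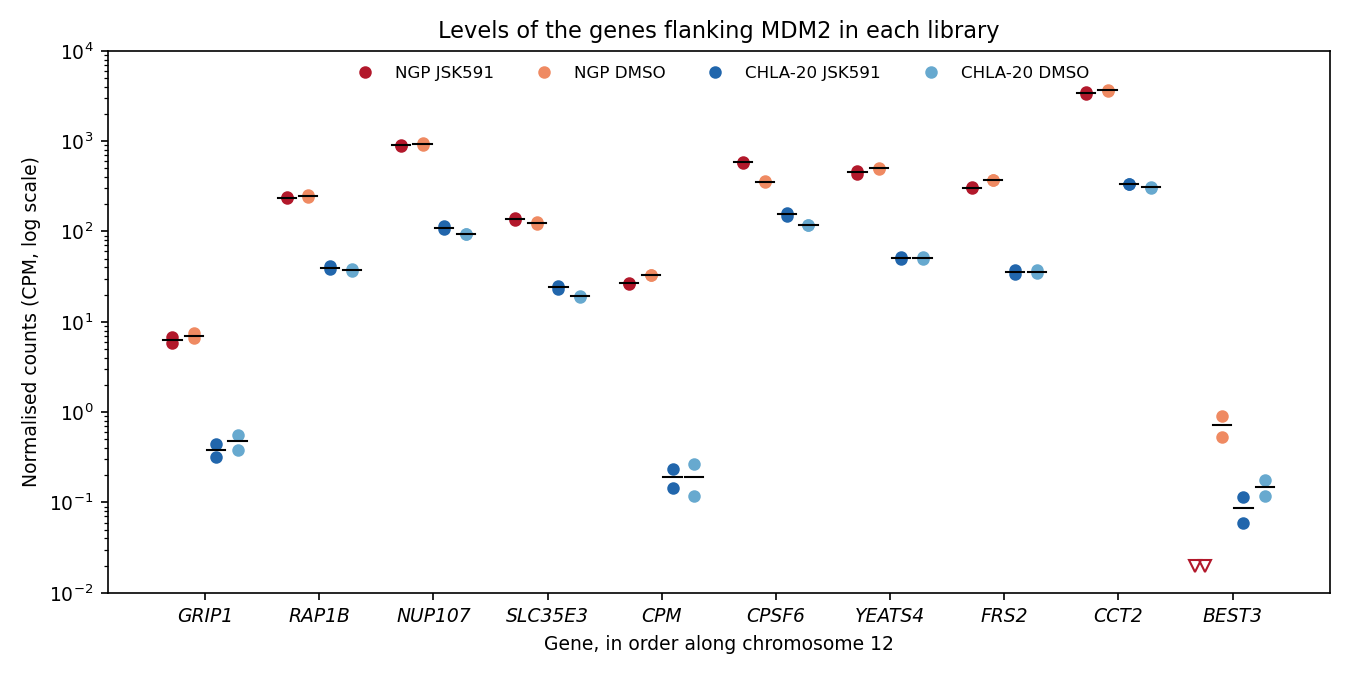
Level of each of the 10 genes in every library, in normalised counts on a log axis, with genes in their order along chromosome 12. Points are libraries, short lines are means of 2 libraries, and open triangles mark the NGP JSK591 libraries of BEST3, which had 0 counts. In 9 genes every NGP point lies above every CHLA-20 point, and in BEST3 this holds for the DMSO libraries only. The share of all genes that separate in this way was not computed.

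Scaled by length, as TPM from the union of exons, the order of the genes was nearly the same in both lines. In NGP DMSO, CCT2 led with 2112 TPM, followed by YEATS4 with 729, NUP107 with 283, FRS2 with 128, CPSF6 with 110, RAP1B with 36.8, SLC35E3 with 16.0, CPM with 11.0, GRIP1 with 2.67 and BEST3 with 0.262. No neighbours in this order had overlapping libraries. In CHLA-20 DMSO, CCT2 again led with 168 TPM and YEATS4 followed with 69.9. CPSF6 with 34.5 TPM then stood above NUP107 with 26.7 and FRS2 with 11.7. The order went on with RAP1B at 5.19 TPM, SLC35E3 at 2.32, GRIP1 at 0.170, CPM at 0.0607 and BEST3 at 0.0508, and only CPM and BEST3 overlapped. CPSF6, with the smallest line difference, and CPM, with the largest, were the genes that changed place between the lines.

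Along the chromosome, RAP1B to BEST3 span 1088.6 kb, and GRIP1 lies apart on the centromeric side. Positions below are those of a gene's lower coordinate. RAP1B starts at -197.3 kb, NUP107 at -121.4 kb and SLC35E3 at -62.1 kb relative to the start of MDM2. CPM starts at 34.0 kb, CPSF6 at 431.4 kb, YEATS4 at 551.5 kb, FRS2 at 662.2 kb, CCT2 at 777.2 kb and BEST3 at 835.2 kb. GRIP1 starts at -2460.7 kb, and 1541.7 kb separate its end from RAP1B.

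Between RAP1B and BEST3, 26 further genes are annotated and 9 passed the filter on low counts, all 9 of them non-coding genes or pseudogenes. Of these 9, 8 averaged at most 0.250 normalised counts in either CHLA-20 group and so passed through NGP, where they were higher. Levels were low in NGP DMSO too for RPL7P42 (0.209), AC020656.2 (0.433), RPL10P12 (0.478) and RPS26P45 (0.628 normalised counts). Nothing is therefore read from the fact that all 9 were called higher in NGP, where of all genes tested 36.6% were called higher and 38.9% lower (edgeR, adjusted p under 0.05). The pseudogene ATP5PDP4 was the one counted in both lines, with 2.63 normalised counts in NGP DMSO against 1.86 in CHLA-20 DMSO, a log2 difference of 0.49. Pseudogenes can share reads with the genes they derive from. In the gap, 5 genes were tested, with a median log2 difference of 0.05 and values of -0.68 to 0.57. Among those, the cullin regulator CAND1 had 218 normalised counts in NGP DMSO against 246 in CHLA-20 DMSO, and the kinase DYRK2 had 136 against 132. MDM1, the nearest protein-coding gene before RAP1B, had 24.4 normalised counts in NGP DMSO against 21.7 in CHLA-20 DMSO, a log2 difference of 0.17 ± 0.07 (adjusted p = 0.0206, edgeR). The large difference was thus not shared by MDM1, which starts at -535.7 kb.

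On the telomeric side, RAB3IP, an exchange factor for RAB8 that starts at 930.5 kb, differed by 0.51 ± 0.07 (adjusted p = 1.33e-09, edgeR). CNOT2, a subunit of the CCR4-NOT deadenylase that starts at 1434.8 kb, had 1344 normalised counts in NGP DMSO against 134 in CHLA-20 DMSO. Its log2 difference of 3.33 ± 0.04 (adjusted p = 1.17e-60, edgeR) was as large as the median of the 10 genes, although it is not one of them. The potassium channel subunit KCNMB4 differed by 1.80 ± 0.08 and, beside GRIP1, the helicase HELB by 1.47 ± 0.11. HELB and GRIP1 overlap in their exons. The phosphatase PTPRB (-1.53 ± 0.16), TMBIM4 (-0.74 ± 0.17) and LLPH (-0.61 ± 0.09) were lower in NGP. Of the 1054 tested genes of chromosome 12 more than 1 Mb outside the outermost genes, 323 were higher and 496 lower in NGP, with a median log2 difference of -0.22. Of these 1054, 126 reached a log2 difference of 2.

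**Figure D2:**
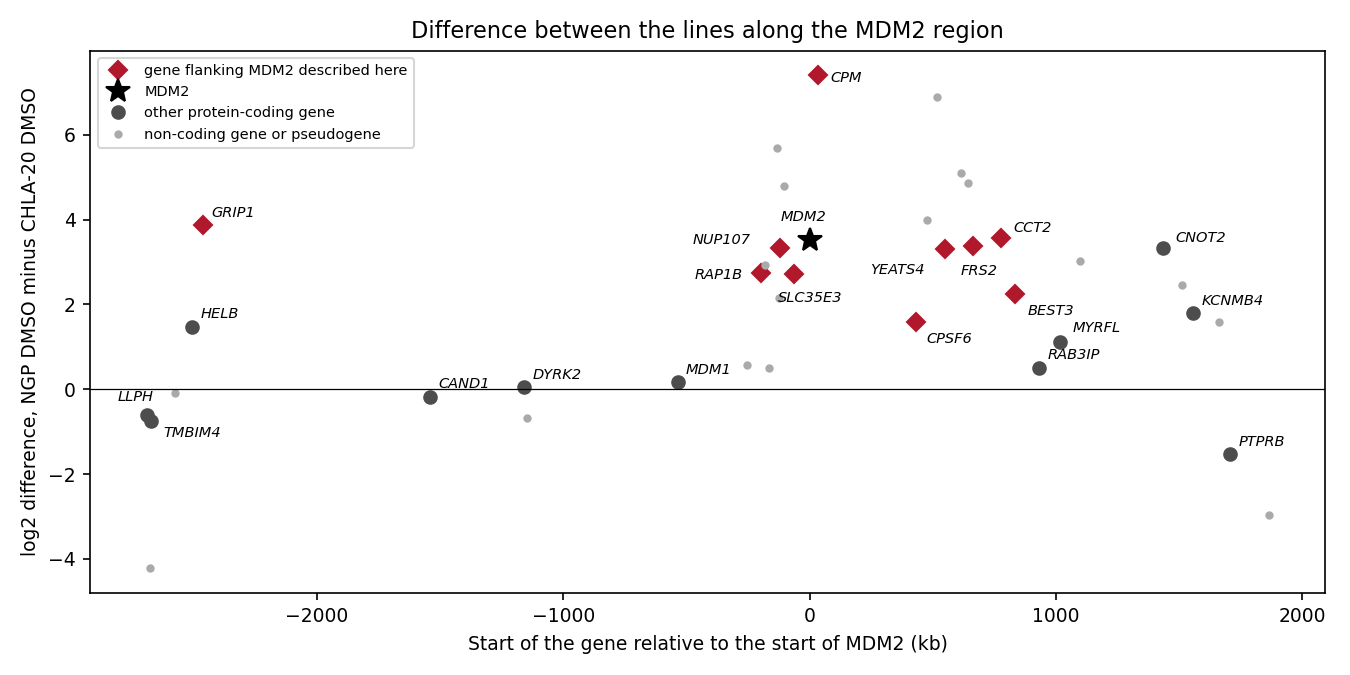
Log2 difference between NGP DMSO and CHLA-20 DMSO for each tested gene of the region, against the start of the gene relative to that of MDM2 in kb. Diamonds are the 10 genes described, the star is MDM2, dark points are other protein-coding genes and small points are non-coding genes or pseudogenes. MDM2, the 10 genes and CNOT2 stand high, while CAND1, DYRK2 and MDM1 lie near 0.

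Partners and relatives that are encoded elsewhere were compared between the lines in the same way. Of the 8 other TRiC subunit genes, 5 were higher and 3 lower in NGP DMSO than in CHLA-20 DMSO (edgeR, adjusted p under 0.05), with a median log2 difference of 0.26 and a range from -1.59 for CCT6B to 1.28 for CCT3. CCT2 accordingly made up 49.0% and 49.6% of the summed TPM of the 9 subunit genes in the NGP DMSO libraries, against 10.6% and 10.9% in the CHLA-20 DMSO libraries. With JSK591 the share of CCT2 was 48.7% and 49.0% in NGP and 10.7% and 10.9% in CHLA-20. The share was thus far larger in NGP than in CHLA-20. CCT6B added almost nothing to the sums, with 0.130 TPM in NGP DMSO and 0.371 TPM in CHLA-20 DMSO.

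The Y complex showed the same picture for NUP107. Of its 9 other genes, 5 were higher and 3 lower in NGP, with a median of 0.16, from -0.51 for NUP98 to 1.07 for NUP160. NUP107 made up 47.9% and 48.9% of the summed TPM of the complex in NGP DMSO, against 10.1% in both CHLA-20 DMSO libraries. In CHLA-20 DMSO its 26.3 and 27.1 TPM lay beside the median of the complex, 25.3 and 25.0, while in NGP DMSO its 291 and 275 TPM compared with a median of 32.2 and 31.5.

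CPSF6 stood apart less. Both partners in cleavage factor Im were higher in NGP too, NUDT21 by 1.05 and CPSF7 by 0.34 on the log2 scale, and CPSF6 made up 32.1% and 31.7% of the summed TPM of the 3 in NGP DMSO, against 21.1% and 21.3% in CHLA-20 DMSO. Of 16 other cleavage and polyadenylation factors, 12 were higher and 4 lower, with a median of 0.34, from -1.19 for CSTF3 to 1.05 for CPSF3. Of 20 further subunits of the TIP60 and SRCAP complexes of YEATS4, 10 were higher and 5 lower, with a median of 0.11, from -0.83 for ZNHIT1 to 1.16 for VPS72. Of the 3 other YEATS domain genes, MLLT3 was higher (0.34), MLLT1 lower (-1.68) and YEATS2 not called (-0.06).

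For FRS2, 6 of 17 genes between FGF receptors and RAS were higher in NGP and 8 lower, with a median of 0.03. The receptor FGFR3 differed by 3.03 and the feedback inhibitor SPRY4 by -2.55. For RAP1B, 4 of 18 tested RAP GTPases and regulators were higher and 11 lower, with a median of -0.44. The related GTPase RAP2B, on another chromosome, differed by 6.96 and the exchange factor RAPGEF4 by -4.35, so 1 relative exceeded RAP1B. RAP2B averaged 0.311 normalised counts in CHLA-20 DMSO, against 39.1 in NGP DMSO, so its difference rests on few counts in CHLA-20. Of the 4 relatives of SLC35E3, 3 were lower and none higher, with a median of -0.58, and SLC35E2A (-0.10) was not called. Of 6 tested carboxypeptidases related to CPM, 3 were higher and 3 lower, led by CPXM1 (-3.27). BEST1, the only other bestrophin tested, was lower in NGP (-0.97). Of 14 tested genes of AMPA receptors and their scaffolds, 5 were higher, led by the receptor subunit GRIA1 (6.64), and 7 lower, led by GRIP2 (-1.32), the closest relative of GRIP1. GRIA1 averaged 0.0740 normalised counts in CHLA-20 DMSO, against 7.72 in NGP DMSO, so its difference also rests on few counts in CHLA-20.

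**Figure D3:**
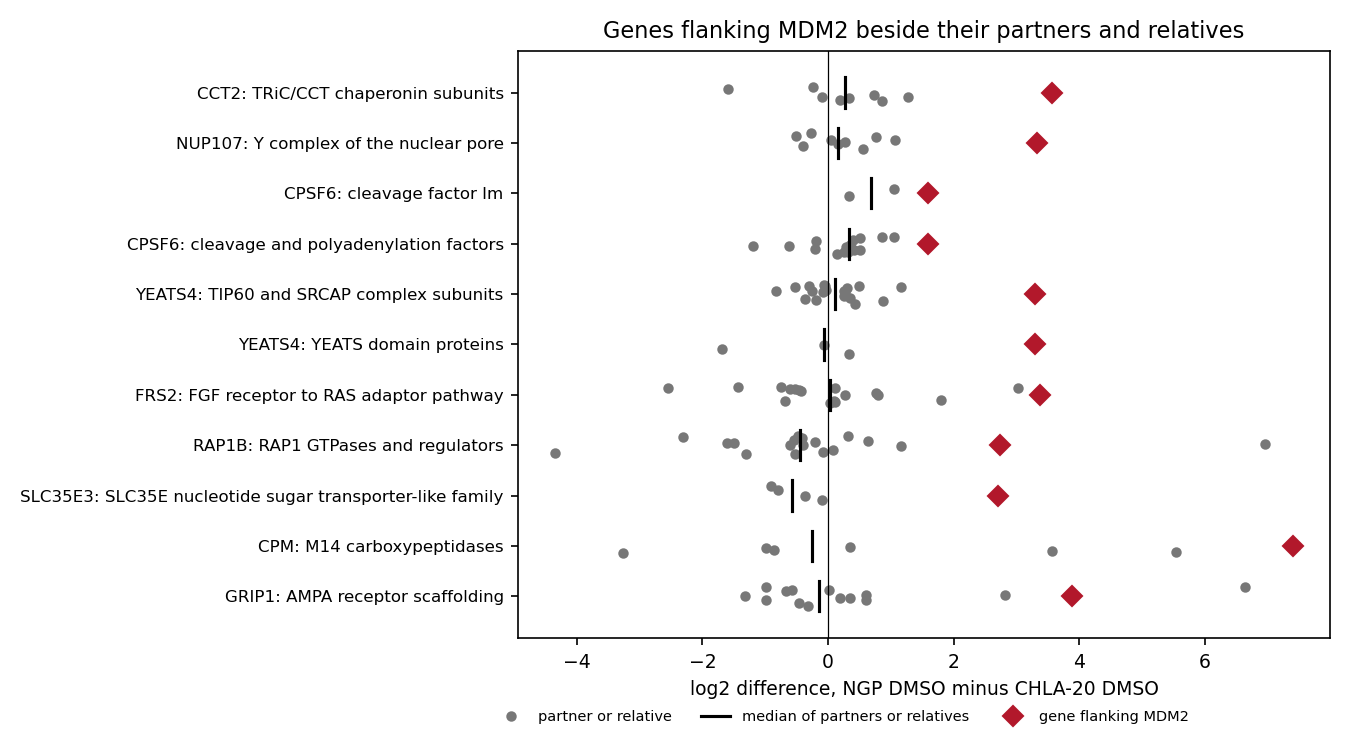
Log2 difference between NGP DMSO and CHLA-20 DMSO for the genes flanking MDM2, as diamonds, and for the other genes of the same complex or family, as points with their median as a line. CCT2, NUP107 and YEATS4 lie above every partner shown, whereas RAP2B lies above RAP1B and GRIA1 above GRIP1. RAP2B and GRIA1 had few counts in CHLA-20 DMSO. BEST3 is not drawn because 1 relative was tested.

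In NGP, 2 of the 10 genes rose with JSK591, CPSF6 and SLC35E3, and 5 fell: FRS2, YEATS4, CPM, CCT2 and BEST3. BEST3 entered the test only through NGP DMSO, the group where it was high, so its fall was favoured by the filter, and 4 fell without it. The test was edgeR's quasi-likelihood test, with p adjusted by Benjamini and Hochberg over 19395 genes and a threshold of 0.05. Of all genes tested, 36.2% were called, 16.8% rising and 19.4% falling. The median log2 change of the 10 was -0.12, and that of all genes lay within 0.01 of 0. Apart from CPSF6 and BEST3 these changes were below 0.35 on the log2 scale.

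CPSF6 moved most among the well-counted genes. It had 593 and 573 normalised counts in NGP JSK591, against 363 and 349 in NGP DMSO, 1.64-fold higher, a log2 change of 0.71 ± 0.04 (estimate ± SE, adjusted p = 4.36e-24, edgeR). With JSK591 its 177 TPM stood above the 104 TPM of FRS2, the reverse of their order with DMSO, and its share of cleavage factor Im was 43.6% and 42.7%. SLC35E3 had 139 and 133 normalised counts with JSK591, against 127 and 122 with DMSO, and rose by 0.13 ± 0.04 (adjusted p = 0.0128, edgeR). This call was lost with DESeq2 (adjusted p = 0.0909), without a filter on low counts (0.0536), and on leaving out the second NGP DMSO library (0.24) or the first NGP JSK591 library (0.339, the last 3 by edgeR).

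FRS2 had 311 and 301 normalised counts in NGP JSK591, against 372 and 370 in NGP DMSO, and fell by 0.28 ± 0.04 on the log2 scale (adjusted p = 1.65e-08, edgeR). CPM had 26.4 and 27.0 with JSK591, against 33.1 and 33.2 with DMSO, and fell by 0.31 ± 0.07 (adjusted p = 1.14e-04, edgeR). YEATS4 had 438 and 463 with JSK591, against 501 and 495 with DMSO, and fell by 0.15 ± 0.04 (adjusted p = 9.65e-04, edgeR). In these 3 genes both treated libraries lay below both DMSO libraries. The same was true of RAP1B and NUP107, which were not called, so nothing is read from this separation alone. CCT2 had 3333 and 3481 normalised counts with JSK591, against 3682 and 3599 with DMSO, and fell by 0.10 ± 0.04 (adjusted p = 0.0274, edgeR). The call on CCT2 did not hold with scaling by total counts (0.0894), with at least 10 counts in every library (0.0784), with NGP fitted alone (0.0859) or without the first NGP JSK591 library (0.0882), all adjusted p by edgeR.

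BEST3 was at 0 counts in both NGP JSK591 libraries, against 18 and 30 counts in NGP DMSO (adjusted p = 4.38e-08, edgeR). With the treated group set to 3 counts in all, an upper limit for 0 counts at 95% confidence, its level was 16.4-fold lower. This bound leaves out the counting error of the DMSO libraries and the spread between replicates. BEST3 had passed the filter on low counts only through the NGP DMSO libraries, so a fall from that group was favoured. DESeq2 gave no adjusted p for it. MYRFL, a neighbouring gene at 1017.1 kb that was chosen after its values were seen, fell as well, to 0.0873 against 0.837 normalised counts, by 3.21 ± 0.55 on the log2 scale (adjusted p = 2.52e-06, edgeR).

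RAP1B, NUP107 and GRIP1 were not called in NGP. RAP1B had 236 and 239 normalised counts with JSK591, against 254 and 243 with DMSO (-0.07 ± 0.04, adjusted p = 0.188, edgeR). NUP107 had 890 and 908 with JSK591, against 963 and 914 with DMSO (-0.06 ± 0.04, adjusted p = 0.182, edgeR). Treated libraries of both genes lay below the DMSO libraries, by less than the test could separate from their spread. GRIP1 had 5.86 and 6.76 with JSK591, against 6.55 and 7.46 with DMSO, and its libraries overlapped (-0.15 ± 0.13, adjusted p = 0.38, edgeR). MDM2 rose by 0.32 ± 0.04 in NGP (adjusted p = 7.11e-11, edgeR), with 589 and 578 normalised counts with JSK591, against 482 and 454 with DMSO. Of its flanking genes CPSF6 and SLC35E3 were called higher as well, and FRS2, YEATS4, CPM and CCT2 lower. BEST3 is left out here because the filter favoured its fall, and the calls on SLC35E3 and CCT2 did not hold in every alternative.

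In CHLA-20, 4 of the 10 genes rose with JSK591 and none fell by the same test (edgeR). Of all genes tested, 39.4% were called, 16.9% rising and 22.4% falling. Those that rose were CPSF6, SLC35E3, NUP107 and CCT2, by 1.09-fold to 1.31-fold. At an unadjusted p under 0.05 the counts were likewise 4 and 0, as they were with DESeq2. The median log2 change of the 10 was 0.04, against -0.02 for all genes.

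CPSF6 had 148 and 160 normalised counts in CHLA-20 JSK591 libraries, against 118 in both DMSO libraries, and rose by 0.39 ± 0.04 on the log2 scale (adjusted p = 6.58e-12, edgeR). SLC35E3 had 24.7 and 23.2 with JSK591, against 18.7 and 19.5 with DMSO, and rose by 0.33 ± 0.06 (adjusted p = 2.18e-05, edgeR). NUP107 had 105 and 115 normalised counts with JSK591, against 93.9 in both DMSO libraries, and rose by 0.23 ± 0.04 (adjusted p = 1.31e-05, edgeR). In these 3 genes the treated libraries lay above both DMSO libraries. The same was true of RAP1B, which was not called, so nothing is read from this separation alone. CCT2 had 335 and 334 with JSK591, against 302 and 312 with DMSO, and rose by 0.12 ± 0.04 (adjusted p = 0.00639, edgeR). The change of CCT2 was small, and without the first CHLA-20 DMSO library it no longer passed (adjusted p = 0.0894, edgeR).

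RAP1B did not pass, although its 38.2 and 41.0 normalised counts with JSK591 lay above its 36.4 and 38.0 with DMSO (log2 change 0.09 ± 0.05, adjusted p = 0.17, edgeR). YEATS4 (-0.01 ± 0.05) and FRS2 (-0.02 ± 0.05) had overlapping libraries and estimates near 0, with adjusted p = 0.924 and 0.828 by edgeR. GRIP1 (-0.31 ± 0.40), CPM (-0.02 ± 0.55) and BEST3 (-0.73 ± 0.80) held at most 19 counts in any CHLA-20 library, and a change of moderate size was not detectable at this depth. MDM2 rose by 0.68 ± 0.05 in CHLA-20 (adjusted p = 1.45e-18, edgeR), more than any of the 10 genes, with 65.0 normalised counts in both JSK591 libraries, against 40.5 and 40.6 with DMSO.

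**Figure D4:**
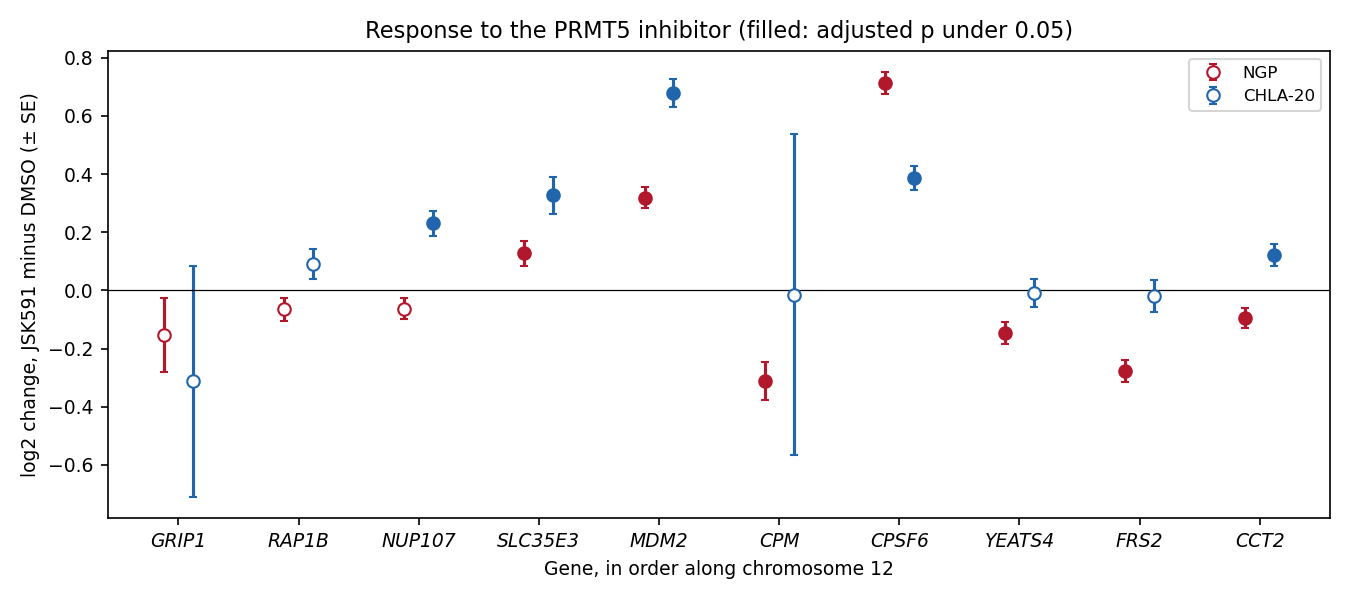
Log2 change with JSK591 relative to DMSO in NGP and in CHLA-20, with its SE, for MDM2 and 9 of the 10 genes in their order along chromosome 12. Filled points passed an adjusted p of 0.05 in edgeR's quasi-likelihood test. CPSF6 rose in both lines, FRS2, YEATS4 and CPM fell in NGP, and the wide bars of GRIP1 and CPM in CHLA-20 go with their few counts. BEST3 is not drawn, because its fitted change in NGP rests on a group at 0 counts.

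The response itself differed between the lines in 6 of the 10 genes, by a test of the difference of the 2 effects in the same model (edgeR, adjusted p under 0.05), against 27.7% of all genes tested (15.2% higher in NGP and 12.5% lower, a balance that turned under other scalings and without some libraries). Of these 6, CPSF6 alone had a higher effect of JSK591 in NGP than in CHLA-20, by 0.33 ± 0.06 on the log2 scale (adjusted p = 4.16e-06, edgeR). It was lower in NGP for NUP107 (-0.29 ± 0.06, adjusted p = 4.28e-05), FRS2 (-0.26 ± 0.07, adjusted p = 0.00186), CCT2 (-0.22 ± 0.05, adjusted p = 7.19e-04) and SLC35E3 (-0.20 ± 0.08, adjusted p = 0.0423), all by edgeR, and for BEST3 (adjusted p = 0.00177, edgeR), whose fitted value rests on a group at 0. BEST3 entered the test only through NGP DMSO, where it was high, so the filter favoured its call among the 6. MDM2 also responded less in NGP, by -0.36 ± 0.06 (adjusted p = 2.62e-06, edgeR). SLC35E3 rose in both lines, and the difference between its effects was lost in 5 of 14 alternatives, while that of FRS2 was lost without the second CHLA-20 JSK591 library (adjusted p = 0.073, edgeR).

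RAP1B (-0.16 ± 0.06, adjusted p = 0.0649) and YEATS4 (-0.14 ± 0.06, adjusted p = 0.0848) missed the threshold of this test by edgeR and passed it in 6 and in 5 of 14 alternatives. For GRIP1 (0.16 ± 0.41) and CPM (-0.30 ± 0.57) the counts in CHLA-20 left the difference undetermined. The median difference of effects over the 10 genes was -0.21, against 0.03 over all genes.

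The partner genes were followed for the same response, with the same test. Of the 8 other TRiC subunit genes, none rose and 3 fell in NGP, CCT4 (-0.18), CCT8 (-0.12) and CCT3 (-0.09). In CHLA-20, 4 rose, among them CCT3 (0.31) and TCP1 (0.21), and CCT4 fell (-0.11). The difference of effects was called in 3 of the 8, all lower in NGP: CCT3 (-0.40), TCP1 (-0.20) and CCT6A (-0.15). CCT2, which was lower with JSK591 in NGP and higher in CHLA-20, therefore had the same pair of signs as CCT3. The lowest fitted change in NGP (-0.61) and the highest in CHLA-20 (0.37) belonged to CCT6B, a low transcript that was not called.

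Of the 9 other genes of the Y complex, NUP160 rose in NGP (0.10) and 3 fell, led by NUP98 (-0.37). In CHLA-20, 4 rose, led by AHCTF1 (0.17) and NUP160 (0.17), and NUP133 fell (-0.22). In cleavage factor Im, neither partner of CPSF6 was called in NGP, with -0.05 for CPSF7 and 0.04 for NUDT21, and both rose in CHLA-20, CPSF7 by 0.15 and NUDT21 by 0.13. The increase of CPSF6 in NGP was thus not accompanied by a called change of these partners. Of the 16 other cleavage and polyadenylation factors, 7 rose and 3 fell in NGP, from FIP1L1 (-0.34) to CSTF3 (0.82), and 5 rose and 5 fell in CHLA-20, from CPSF1 (-0.38) to PCF11 (0.34). The effect was higher in NGP for 7 of these 16 and lower for 2.

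Of the 20 other TIP60 and SRCAP subunits, 2 rose and 5 fell in NGP, from EPC1 (-0.78) to EP400 (0.21), and 6 rose and 4 fell in CHLA-20, from KAT5 (-0.26) to EPC2 (0.37). Of the other YEATS domain genes, MLLT3 fell in NGP (-0.55) and in CHLA-20 (-0.60), YEATS2 fell in NGP (-0.27) and in CHLA-20 (-0.13), and MLLT1 rose in NGP (0.17). In the FGF receptor pathway of FRS2, 5 genes rose and 3 fell in NGP, from FGFR4 (-0.94) to FGFR2 (0.74), and 5 rose and 7 fell in CHLA-20, from FGFR4 (-1.65) to SPRY1 (1.11). The feedback inhibitors SPRY1, SPRY2 and SPRY4 were not called in NGP and rose in CHLA-20, and each of these differences of effects was itself called.

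Of the RAP GTPases and regulators, 7 rose and 3 fell in NGP, from RAP1GDS1 (-0.32) to RAPGEF4 (0.59), and in CHLA-20 RAP1GAP2 rose (0.12) and 7 fell, led by RASIP1 (-0.83). Relatives of SLC35E3 that rose were SLC35E2A in NGP (0.47) and in CHLA-20 (0.15) and SLC35E1 in NGP (0.26) and in CHLA-20 (0.41), and none of the 4 fell. Of the carboxypeptidases, CPE rose in NGP (0.15), and 3 fell in CHLA-20, among them CPXM1 (-0.81). BEST1 fell in NGP (-0.56) and in CHLA-20 (-1.52). Of the AMPA receptor genes, 4 rose and 3 fell in NGP, from GRIA3 (-0.32) to CACNG8 (0.76), and 7 fell and none rose in CHLA-20, led by DLG4 (-0.78).

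Among neighbours of the 10 genes, RAB3IP fell with JSK591 in NGP (-0.30 ± 0.07, adjusted p = 1.95e-04, edgeR) and in CHLA-20 (-0.22 ± 0.07, adjusted p = 0.0123, edgeR). CNOT2, the neighbour with the line difference of 3.33, fell in NGP (-0.20 ± 0.03, adjusted p = 4.47e-06, edgeR) and was not called in CHLA-20 (0.02 ± 0.04, adjusted p = 0.743, edgeR). DYRK2 fell in NGP (-0.14 ± 0.04) and in CHLA-20 (-0.39 ± 0.04). Of the 28 tested genes of the region other than the 10 and MDM2, 3 rose and 7 fell in NGP and 5 rose and 6 fell in CHLA-20.

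The profiles of the 10 genes over the 8 libraries were compared with their median profile, as the Euclidean distance between log2 levels centred on each gene's mean. YEATS4 (0.141), FRS2 (0.150), NUP107 (0.246) and CCT2 (0.426) lay closest to it. RAP1B (0.778), SLC35E3 (0.955), GRIP1 (1.23) and CPSF6 (2.26) lay farther, and CPM (5.85) and BEST3 (8.01) farthest. Among 12268 protein-coding genes outside the region with at least 1 normalised count on average, the 5 closest to the same profile were TSFM (0.224), GALNT14 (0.252), SBNO1 (0.254), COTL1 (0.289) and KMT5A (0.293). Of these, TSFM, SBNO1 and KMT5A also lie on chromosome 12, TSFM at 57782589 to 57808071, SBNO1 at 123289109 to 123364843 and KMT5A at 123383773 to 123409358. Their log2 differences between NGP DMSO and CHLA-20 DMSO were 3.23 for TSFM, 3.39 for SBNO1 and 3.22 for KMT5A. GALNT14 lies on chromosome 2 and COTL1 on chromosome 16, so a profile of this kind was not limited to chromosome 12.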

How the data were processed

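Messenger RNA of NGP and CHLA-20 cells was sequenced by the DNBseq method. The authors deposited unnormalised read counts for each gene, 1 file a library. Per the submitters' processing notes STAR, HTSeq and DESeq2 were used, with no role given, and the genome was GRCh38 (hg38). Tool versions, the annotation used and strand handling are not given in the sources used here. GENCODE release 29 held all 58721 identifiers and gave symbols, coordinates and exon lengths. Entries that name no gene (5.15% to 6.86% without a feature, 6.77% to 7.18% ambiguous and 19.2% to 22.0% not uniquely aligned) stayed out of library sizes and tests.

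Counts were analysed with edgeR 4.0.16 in R 4.3.3. The filterByExpr filter was applied over the 4 groups, libraries were scaled by TMM (factors 0.976 to 1.03), and 1 quasi-likelihood model was fitted to all 8 libraries, which left 4 residual degrees of freedom, with common dispersion 7.61e-04. P-values were Benjamini-Hochberg adjusted over 19395 genes with 0.05 as the threshold. SEs were derived from the test's F value. The procedure was tested on simulated counts. TPM was computed from the union of exons. A count of 0 leaves up to 3 counts possible at 95% confidence, which is at most 0.0904 normalised counts in a library, and such floors cover counting error only. Replicates of a group differed by more than sampling noise (chi-square per degree of freedom 2.16 to 3.37). Normalised counts are counts per 1000000 of the TMM-scaled library size. Same-numbered libraries did not deviate together (correlations -0.037 to 0.0020), so no block was used.

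The 10 genes, the 12 lists of partners and relatives and the markers were chosen with earlier results of these data known, and the lists were written from general knowledge. Of the listed names, GRASP1 and SLC35E2 are not symbols of this annotation. Named genes were all 10 genes and MDM2, the nearest tested protein-coding neighbours, the 3 highest and 3 lowest protein-coding genes of the region by line difference, the highest and lowest gene of each list in each contrast, and the 5 closest profiles, for which 0.01 was added before taking logs. Results of 1 gene are not reported here. The region ran 1000000 bases past the outermost genes. Alternatives were scaling by total counts and by relative log expression, DESeq2 1.42.0, no filter, at least 10 counts in every library, each line alone, a replicate block and leaving out each library.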

Additional observations from a re-analysis of the deposited data

Results flagged for a closer look

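The effect of JSK591 differed between the lines, by the test of the difference itself (edgeR's quasi-likelihood test, NGP minus CHLA-20, log2 scale), in 7 of the 11 genes examined, counting MDM2. The difference was 0.33 (adjusted p = 4.16e-06) for CPSF6, which rose in both lines and more in NGP. It was -0.36 (adjusted p = 2.62e-06) for MDM2 and -0.20 (adjusted p = 0.0423) for SLC35E3, which both rose less in NGP. It was -0.29 (adjusted p = 4.28e-05) for NUP107, which rose in CHLA-20 and was not called in NGP. It was -0.26 (adjusted p = 0.00186) for FRS2, which fell in NGP and was not called in CHLA-20, and -0.22 (adjusted p = 7.19e-04) for CCT2, which rose in CHLA-20 and fell in NGP. For BEST3 the fitted difference was -6.88 (adjusted p = 0.00177), a value that depends on the prior count because both NGP JSK591 libraries had 0 counts. The filter favoured this difference, because BEST3 entered the test only through NGP DMSO, where it was high.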

How the results depend on the processing

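Of the counts of called genes and the median line difference, 1 value moved past its limit: with at least 10 counts in every library, 4 of the 10 genes were called in NGP (2 higher and 2 lower), against 7, because CPM and BEST3 no longer entered and CCT2 missed the threshold. Leaving out each library in turn gave 5 to 7 called genes in NGP, 3 to 4 in CHLA-20 and 5 to 8 for the difference of effects, and a median line difference of 3.30 to 3.37. With a replicate block 7 of the 10 genes were called in NGP, 4 in CHLA-20 and 6 for the difference, the numbers without it, and 7013, 7644 and 5397 of all genes. The number of all genes called stayed within 1.5 times under every alternative run. For the difference of effects, 2950 were higher and 2418 lower in NGP, but 2670 and 2773 with relative log expression scaling, 1850 and 2022 with DESeq2, 2066 and 2638 without the second CHLA-20 DMSO library, 1989 and 2698 or 2174 and 2708 without the first or the second NGP DMSO library, and 1999 and 2604 without the first NGP JSK591 library. Estimates that changed sign were all of effects not called. In CHLA-20 the change of YEATS4 was 0.0060 with scaling by total counts, 0.0010 with at least 10 counts, 0.015 with the line alone and -0.042 to 0.033 on leaving out each library. That of FRS2 was 0.0049 with the line alone and -0.084 to 0.048 without a library, and that of CPM -0.48 to 0.69. The difference of effects ranged from -1.03 to 0.16 for CPM and from -0.14 to 0.42 for GRIP1 in the same fits. The cause of these changes was not tested. NUP107 passed in NGP without the second NGP DMSO library (-0.12, adjusted p = 0.0359, edgeR; up to 0.445 over its alternatives). Of 322 alternative values for a JSK591 effect of 1 gene, 293 kept their direction and their side of the threshold, as did 130 of 151 for the difference of effects. Depth limits CPM and GRIP1 in CHLA-20 and BEST3 everywhere. Fits without a library leave its group with 1 sample, which is assumed to vary like the others.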
